A study of Mus musculus with 4 samples.

Results

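Liver transcripts of 6 genes that buffer, sense or move zinc and related metals were examined, out of 35275 genes listed with read counts. The genes were taken by symbol: the metallothioneins Mt1 and Mt2, the metal-sensing transcription factor Mtf1, the exporters Slc30a1 and Slc30a10, and the importer Slc39a4. All 6 were found once in the table, and all passed the filter of at least 1 CPM (counts per 1000000, after TMM scaling) in at least 1 library, which left 12180 genes in total. Livers came from female mice carrying the amyloidogenic Apoa2c allele, in which apolipoprotein A-II is deposited as AApoAII amyloid. Sources differ on the strain, which is R1.P1-Apoa2c on the SAMR1 background in the methods of the study and AKR/J with an Apoa2c congenic genotype in the labels. The 4 groups combined vehicle or fibril injection with a sedentary life or interval training (IT): vehicle mice formed VS without and VI with IT, and fibril mice formed FS without and FI with IT. Fibril groups received 1 μg of AApoAII fibrils intravenously at 10 weeks of age, vehicle groups received saline, and all groups carried the same allele. Livers were taken at 26 weeks of age, after 16 weeks of treadmill training or none, and RNA was extracted from a pool of tissue from 4 mice per group. Each group is therefore 1 library, so no value has a replicate error, and no difference between a pair of libraries was tested. The 95% intervals given with levels and ratios cover counting error only, and since the reads carry no molecular identifiers they cannot be taken as independent molecules.

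Metallothioneins are small cysteine-rich proteins that bind zinc and copper in the cytosol, and the liver is a major site of their synthesis. When free zinc rises, MTF1 binds metal response elements (MREs) in the promoters of metallothionein genes and of Slc30a1 and increases their transcription, while glucocorticoids and interleukin-6 also induce Mt1 and Mt2 in liver. SLC30A1 (ZnT1) carries zinc out of the cell across the plasma membrane, SLC30A10 exports mainly manganese, and SLC39A4 (ZIP4) is the zinc importer of the intestine, where its loss causes acrodermatitis enteropathica.

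Mt1 (ENSMUSG00000031765, 3 exons) was listed at chromosome 8, 94179089 to 94180325, and Mt2 (ENSMUSG00000031762, 3 exons) lay 5521 bases before it on the same forward strand, at 94172618 to 94173567. Slc30a1 (ENSMUSG00000037434, 2 exons) was listed at chromosome 1, 191906767 to 191913247, and Slc30a10 (ENSMUSG00000026614, 4 exons) at 185454848 to 185468762 of that chromosome, both on the forward strand. Mtf1 (ENSMUSG00000028890, 11 exons) was on the forward strand of chromosome 4, 124802104 to 124849800, and Slc39a4 (ENSMUSG00000063354, 11 exons) on the reverse strand of chromosome 15, 76612385 to 76616852. The submitters' processing notes name mm10. Exon numbers are those of the first transcript of each gene in GENCODE M21 on GRCm38, which gives the same start and end as the listing for Mtf1, Slc30a1 and Slc30a10, and other ends for Mt1, Mt2 and Slc39a4.

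Promoter sequences were found in RefSeq (GRCm38.p6) for 5 of the 6 genes, all except Slc39a4. The stretches before the start of Mt1 (chr8:94178839-94179081), Mt2 (chr8:94172368-94172617) and Slc30a10 (chr1:185454598-185454847) are shown, forward strand, because these 3 genes had the widest ranges over the 4 libraries. Capitals mark matches to the core of the MRE, searched as TGCACNC and TGCGCNC on both strands. The stretch of Mt1 ends where a longer GENCODE transcript begins.
Mt1: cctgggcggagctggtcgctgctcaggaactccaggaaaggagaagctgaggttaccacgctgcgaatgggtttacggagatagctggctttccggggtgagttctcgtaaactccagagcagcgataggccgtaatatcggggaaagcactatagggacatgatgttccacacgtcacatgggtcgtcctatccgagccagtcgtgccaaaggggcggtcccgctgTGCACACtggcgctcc
Mt2: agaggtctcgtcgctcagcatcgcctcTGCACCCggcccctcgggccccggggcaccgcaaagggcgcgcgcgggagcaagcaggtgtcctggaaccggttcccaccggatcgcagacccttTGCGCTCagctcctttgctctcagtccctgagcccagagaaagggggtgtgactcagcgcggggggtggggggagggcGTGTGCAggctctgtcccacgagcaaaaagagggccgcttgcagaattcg
Slc30a10: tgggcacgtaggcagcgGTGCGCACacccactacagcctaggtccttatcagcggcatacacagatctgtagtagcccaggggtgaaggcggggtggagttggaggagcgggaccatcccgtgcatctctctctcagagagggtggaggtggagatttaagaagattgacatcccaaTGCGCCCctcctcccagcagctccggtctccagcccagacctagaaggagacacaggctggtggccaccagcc
In the 250 bases before the RefSeq start, Mt2 and Slc30a10 each held 3 matches, Mt1 and Slc30a1 held 1 each, and Mtf1 held 0. Of the 3 matches of Slc30a10, 2 overlapped on opposite strands, at 233 to 226 bases before the start. At least 1 match was held by 21.4% of the 32851 promoters of the same length, and at least 3 by 1.26%. The match of Mt1 lay 23 to 17 bases before the start, and those of Mt2 began 223, 128 and 50 bases before it. In a window of 300 bases that adds 50 after the start, chosen after the data had been seen, Mt1 and Slc30a10 each held 3 matches, a number reached by 1.97% of promoters, Mt2 held 4 (0.517%), Slc30a1 held 2 (7.11%) and Mtf1 held 0. A match is a run of letters and not a measured binding site. Positions refer to the RefSeq start, and the start used in these livers was not examined. The number of matches before the start of Mt1 therefore depends on that annotation. The E-box CACGTG, a motif bound by USF and by clock factors, was held by 0 of the 5 promoters and by 6.02% of all promoters.

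**Figure D1:**
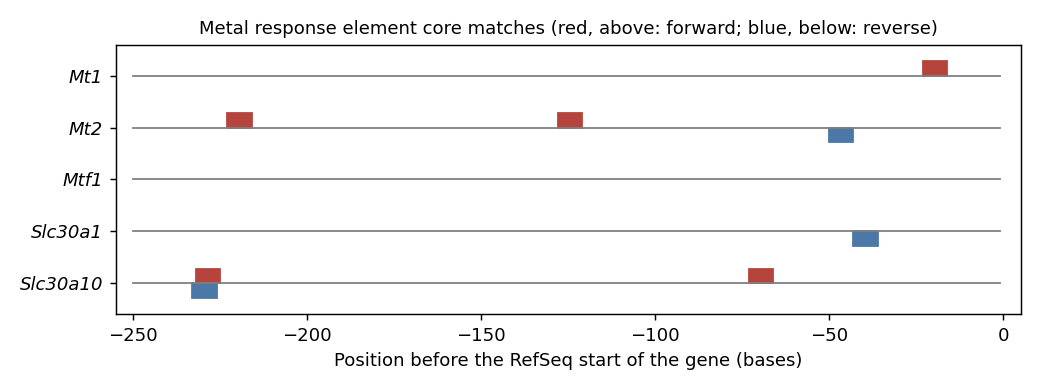
Matches to the metal response element core in the 250 bases before the RefSeq start of 5 genes, with the distance from the start in bases on the x axis and a row for each gene on the y axis. Boxes above a line are forward matches and boxes below it reverse matches. Mt2 and Slc30a10 each hold 3, Mt1 and Slc30a1 hold 1 each, and Mtf1 holds 0. Matches after the RefSeq start are not drawn.

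Mt1 was the most abundant transcript of the 6 in every library, per length as well as in counts. VS held 1255 CPM (95% interval 1241 to 1270), VI 2226 CPM (2207 to 2245), FS 2534 CPM (2516 to 2553) and FI 3859 CPM (3834 to 3884). The level was lowest in the untreated sedentary pool and highest in the pool with both fibril and IT, with each single intervention between them. The order FI, FS, VI, VS had no interval of a neighbouring ratio that held 0 on the log2 scale, the closest pair being FS and VI, with a log2 ratio of 0.19 (0.17 to 0.20). From VS to FI the level of Mt1 was 3.07-fold higher.

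Mt2 had the same order. The VS pool was at 790.0 CPM (779 to 801), VI at 1359 CPM (1345 to 1374), FS at 2040 CPM (2024 to 2057) and FI at 2540 CPM (2520 to 2561). All 4 intervals were apart from each other. The level in FI was 3.22-fold that in VS, and FS stood further above VI than for Mt1, by 0.59 (0.57 to 0.61) on the log2 scale.

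Per length of transcript, Mt1 and Mt2 were among the most abundant transcripts of the liver. In the ranking of all genes by FPKM (counts scaled by gene length and by library total), Mt1 took place 25 in VS, at 2342 FPKM, and place 7 in FI, at 6971 FPKM. In VI it took place 14, at 4095 FPKM, and in FS place 13, at 4809 FPKM. Mt2 took place 43 in VS (1431 FPKM), place 29 in VI (2428 FPKM), place 19 in FS (3760 FPKM) and place 14 in FI (4457 FPKM). Reads of both genes made up 0.206% of all counts in VS and 0.356% in VI, and with fibrils 0.469% in FS and 0.624% in FI. The balance between the pair differed in FS, where the ratio of Mt1 to Mt2 in FPKM was 1.28, against 1.64 in VS, 1.69 in VI and 1.56 in FI. Transcripts of the pair share no identical stretch longer than 20 bases.

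The other mouse metallothioneins were at or near 0. Mt3, the brain metallothionein, had 0 counts in every library, which allows up to 3 counts, worth between 0.102 CPM (FS) and 0.127 CPM (VS). Mt4, the metallothionein of stratified epithelia, had 13 counts in VI (0.534 CPM, 0.284 to 0.913) and 0 in VS, FS and FI.

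**Figure D2:**
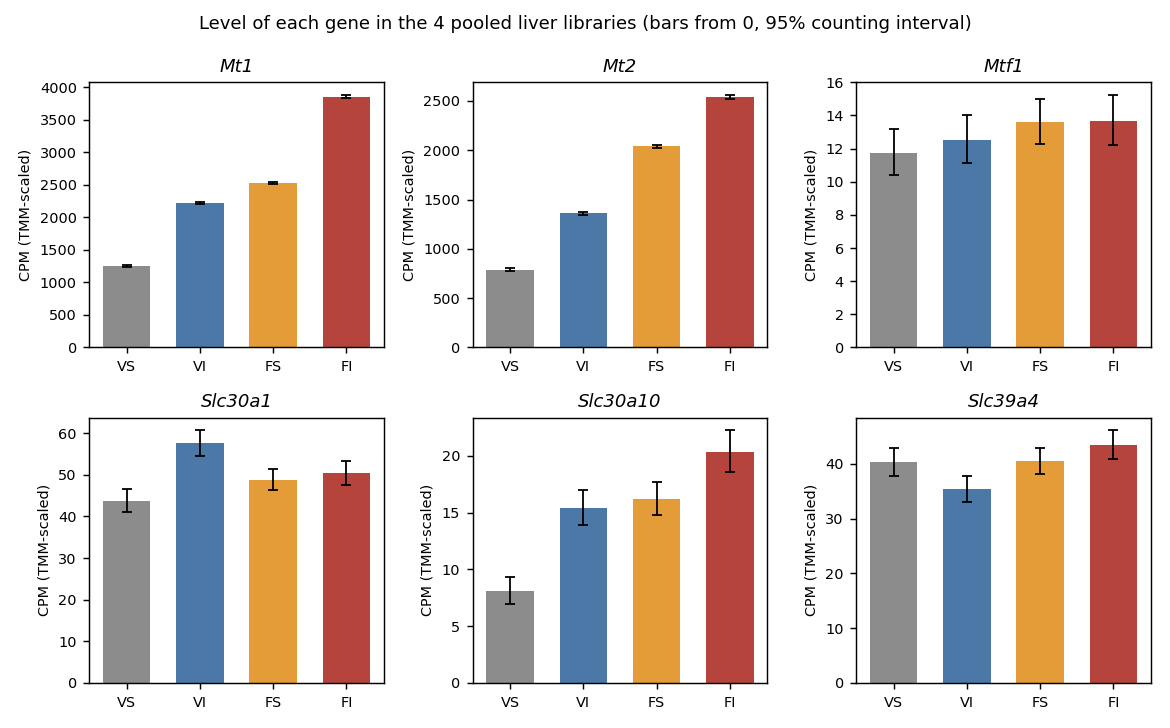
Level of each of the 6 genes in the 4 pooled libraries, with the group on the x axis and TMM-scaled CPM from 0 on the y axis. Bars are single libraries and error bars the 95% Poisson intervals of their counts. Mt1 and Mt2 step up from VS through VI and FS to FI, Slc30a10 is lowest in VS at 8.09 CPM, and Mtf1, Slc30a1 and Slc39a4 span a narrow range.

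The transcript of Mtf1, whose protein senses free zinc, was scarce and close to level. VS stood at 11.7 CPM (10.4 to 13.2), VI at 12.5 CPM (11.2 to 14.0), FS at 13.6 CPM (12.3 to 15.0) and FI at 13.7 CPM (12.2 to 15.2). No pair of neighbours in this order was apart beyond counting error, and FI against VS gave a log2 ratio of 0.22 (−0.01 to 0.46). In each of the 4 contrasts the interval of Mtf1 held 0, so no difference beyond counting error was seen. An antisense gene, 1110065P20Rik, overlaps 721 bases of Mtf1 and had 167 to 210 counts against 277 to 401 for Mtf1, and the strand setting of the counting was not given in the sources used here.

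Slc30a10, the manganese exporter, was the only transporter of the 3 with a range near that of the metallothioneins. VS measured 8.09 CPM (6.98 to 9.32), VI 15.4 CPM (13.9 to 17.0), FS 16.2 CPM (14.8 to 17.7) and FI 20.4 CPM (18.6 to 22.3). VS was lowest and FI highest, and the intervals of VI and FS overlapped. FI was 2.52-fold higher than VS, with a log2 ratio of 1.33 (1.09 to 1.58). The antisense gene Gm2061, which overlaps 721 bases of it, had between 1 and 14 counts, against 191 to 493 for Slc30a10.

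The zinc exporter Slc30a1, a known MTF1 target, had its highest level in the trained vehicle pool and not in FI. The level was 43.8 CPM (41.2 to 46.5) in VS and 57.6 CPM (54.6 to 60.7) in VI, whereas FS had 48.8 CPM (46.3 to 51.4) and FI 50.4 CPM (47.6 to 53.3). FS and FI were not apart beyond counting error, with a log2 ratio of 0.05 (−0.07 to 0.16), and the range over all 4 libraries was 1.32-fold. The antisense gene 1700034H15Rik, overlapping 761 bases, had 4 to 9 counts.

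Slc39a4, the ZIP4 importer, was detected in all pools and had its lowest value where Slc30a1 had its highest. VS had 40.3 CPM (37.8 to 42.9) and VI 35.3 CPM (33.0 to 37.8), with FS at 40.5 CPM (38.2 to 42.8) and FI at 43.4 CPM (40.8 to 46.1). Only VI was apart from its neighbour VS in this order, by a log2 ratio of −0.19 (−0.32 to −0.05). Of 8 markers of intestinal epithelium, the tissue where Slc39a4 is best known, between 4 and 5 had a count of 0, and the summed level of the list was lowest in FS at 63.1 CPM and highest in VS at 131 CPM. Fabp2, at 35.9 CPM or more in every library, and Lgals4, at 27.0 CPM or more, made up nearly all of that sum, and Cdx2, Lct, Sis and Cdh17 had 0 counts in all libraries. The part of such cells in the level of Slc39a4 was not tested.

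Per length, the order between the 6 genes was Mt1, Mt2, Slc39a4, Slc30a1 in every library. Slc39a4 lay at 15.8 to 19.0 FPKM and Slc30a1 at 8.41 to 10.9 FPKM. Mtf1 stood above Slc30a10 in VS, and below it in VI, FS and FI, where Slc30a10 had 2.62, 2.84 and 3.41 FPKM against 1.63, 1.82 and 1.75 FPKM for Mtf1.

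Among sedentary and trained vehicle livers, VI against VS, Mt1 was higher by a log2 ratio of 0.83 (0.81 to 0.85), Mt2 by 0.78 (0.76 to 0.81) and Slc30a10 by 0.93 (0.67 to 1.19). Slc30a1 was higher by 0.40 (0.28 to 0.51). None of the 6 passed 2-fold, the size used to count genes, which 3.44% of the 12180 genes passed. The median of the 6 was 0.59, against 0.00 over all genes.

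With fibrils, IT was accompanied by smaller ratios of the same genes. FI against FS gave 0.61 (0.59 to 0.62) for Mt1, 0.32 (0.30 to 0.33) for Mt2 and 0.33 (0.15 to 0.52) for Slc30a10. The intervals of Mtf1, Slc30a1 and Slc39a4 held 0. Again 0 of the 6 passed 2-fold, with 4.26% of all genes past it. The median was 0.21, and all 6 ratios were above 0 with TMM scaling, as were those of 50.1% of all genes, but those of Mtf1 and Slc30a1 fell below 0 when scaled by total counts.

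Fibril injection in sedentary mice, FS against VS, gave the largest ratios of Mt1 and Mt2 among the 4 contrasts, 1.01 (0.99 to 1.03) and 1.37 (1.35 to 1.39). These 2 genes of the 6 passed 2-fold, as did 5.78% of all genes in either direction and 3.6% upwards. Mt1 lay at the threshold, with a fold of 2.02, and only Mt2 passed when DESeq2 size factors were used. Slc30a10 lay just below it, with a fold of 1.999 and a log2 interval of 0.76 to 1.25, and with scaling by total counts it passed, at a log2 ratio of 1.02, which made 3 of the 6. The ratio of Slc30a1 was 0.16 (0.04 to 0.27), while Mtf1 at 0.21 (−0.01 to 0.44) and Slc39a4 at 0.01 (−0.12 to 0.13) had intervals that held 0. The median was 0.61, against 0.02 over all genes.

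In trained mice, FI against VI, Mt1 was higher with fibrils by 0.79 (0.78 to 0.81), Mt2 by 0.90 (0.88 to 0.92), Slc30a10 by 0.40 (0.21 to 0.60) and Slc39a4 by 0.30 (0.17 to 0.43). Slc30a1 was lower, by a log2 ratio of −0.19 (−0.30 to −0.08). None passed 2-fold, against 4.54% of all genes, and the median of the 6 was 0.35, against 0.01. VI against VS and FS against VS share the VS library, as FI against FS and FI against VI share FI, so the values of such a pair of contrasts are not independent.

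**Figure D3:**
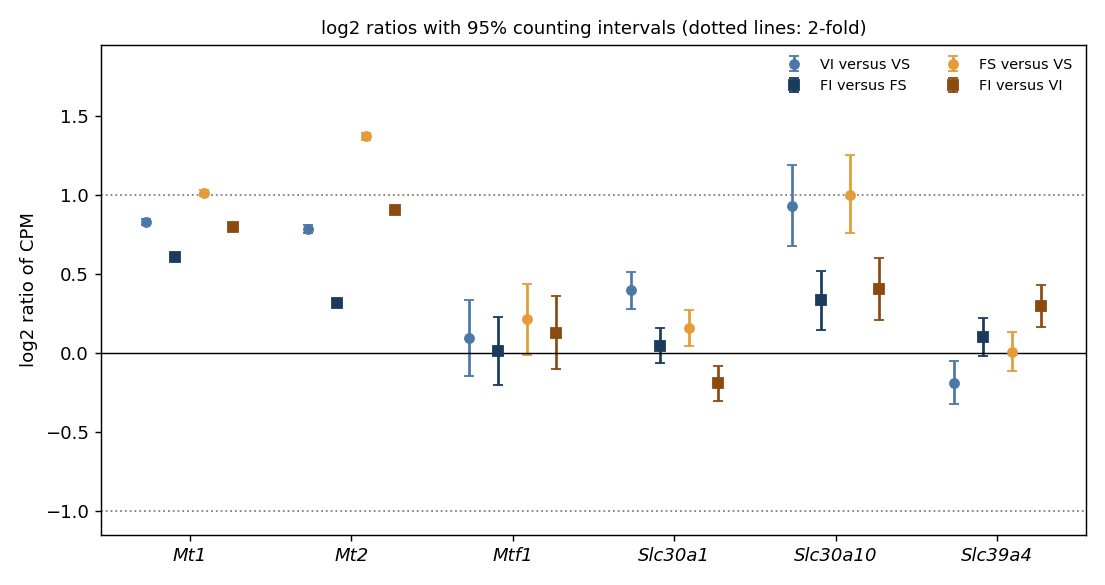
log2 ratio of CPM of each gene (y axis) in the 4 contrasts, for the 6 genes on the x axis. Points are ratios of single libraries, error bars 95% counting intervals, and dotted lines mark 2-fold. Mt1 and Mt2 lie above 0 in every contrast, with Mt2 highest at 1.37 in FS versus VS, and Mtf1 has intervals that hold 0 throughout.

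The effect of IT was compared between fibril and vehicle livers as the difference of both log2 ratios. It was −0.22 (−0.24 to −0.20) for Mt1, −0.47 (−0.50 to −0.44) for Mt2 and −0.60 (−0.91 to −0.29) for Slc30a10, so the ratio with IT was smaller in fibril livers. For Slc30a1 it was −0.35 (−0.51 to −0.19) and for Slc39a4 0.29 (0.11 to 0.47), while the interval of Mtf1, −0.08 (−0.40 to 0.23), held 0. None of these differences reached 1, the size that 5.84% of all genes passed. On the linear scale, where the level expected in FI is VI plus FS minus VS, Mt1 lay above its expectation, at 3859 against 3505 CPM. Mt2 was close below, at 2540 against 2610 CPM, and Slc30a10 and Slc30a1 were below, at 20.4 against 23.5 CPM and 50.4 against 62.6 CPM. Slc39a4 lay above its expectation, at 43.4 against 35.5 CPM, and Mtf1 stood at 13.7 against 14.4 CPM.

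An additive model of both factors, whose 1 residual degree of freedom is the interaction itself, was fitted to 11760 genes with edgeR's quasi-likelihood test and Benjamini-Hochberg adjustment. Its amyloidosis factor stands for fibril injection and treats FS and FI alike. The study reported less amyloid in the livers of FI mice than in those of FS mice, so the factor does not measure the amount of amyloid. With amyloidosis Mt1 rose by 0.90 on the log2 scale (SE 0.15, adjusted p = 0.0140) and Mt2 by 1.13 (SE 0.16, adjusted p = 0.00892). With amyloidosis as the only term in edgeR neither passed, at adjusted p = 0.348 and adjusted p = 0.188. In the additive model these were 2 of the 6 genes, and 4.97% of all genes were called for amyloidosis, 2.81% as higher. Slc30a10 had an estimate of 0.69 (SE 0.18), with adjusted p = 0.0644 in the same quasi-likelihood test. DESeq2's Wald test did not call it either (adjusted p = 0.151). Only edgeR without a filter on low counts called it (adjusted p = 0.000614), a fit that called 1519 of 19939 genes for amyloidosis. For IT 0 of the 6 were called, with 1.48% of all genes called, although 3 of the 6 had an unadjusted p below 0.05, as had 14.7% of all genes. The estimates with IT were 0.72 (SE 0.15, adjusted p = 0.0593) for Mt1, 0.55 (SE 0.16, adjusted p = 0.164) for Mt2 and 0.61 (SE 0.18, adjusted p = 0.160) for Slc30a10 in edgeR. DESeq2's Wald test in the same design called Mt1 for IT (adjusted p = 0.00116), but not Mt2 (adjusted p = 0.0814) or Slc30a10 (adjusted p = 0.417). That test called 182 genes in all for IT. Without a filter on low counts, edgeR called Mt1 (adjusted p = 0.000223), Mt2 (adjusted p = 0.00993) and Slc30a10 (adjusted p = 0.00685). That fit called 740 of 19939 genes for IT, against 174 of 11760 with the filter. Estimates of Mtf1, Slc30a1 and Slc39a4 lay between −0.04 and 0.22 for both factors, with none called. The residual here is a departure of 1 pooled library from additivity and measures no spread between mice.

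The zinc transporter families were taken whole, with Slc30a1, Slc30a10 and Slc39a4 included. Of 10 Slc30 genes, which encode zinc exporters and vesicle loaders, 8 were kept. None of these 8 passed 2-fold in any contrast or the additive test of either factor, but all 8 were higher in FS against VS. Their median log2 ratio was 0.24 in VI against VS, −0.004 in FI against FS, 0.36 in FS against VS and 0.09 in FI against VI. Over all genes the median in FS against VS was 0.02. Besides Slc30a10, Slc30a5 was higher in FS against VS by 0.87 (0.74 to 1.01) and Slc30a7 by 0.67 (0.51 to 0.84). In FI against FS, 4 of the 8 were lower, among them Slc30a5 at −0.64 (−0.77 to −0.52) and Slc30a7 at −0.29 (−0.44 to −0.14). Of 14 Slc39 importers 12 were kept, with medians of −0.12, −0.06, 0.06 and 0.06 in the same order. Slc39a2, an importer at the plasma membrane, was the only one past 2-fold, with 6.86 CPM (VS), 3.94 (VI), 3.08 (FS) and 2.19 (FI). With amyloidosis it fell by 1.02 on the log2 scale (SE 0.23, adjusted p = 0.0425, edgeR), where 2.17% of all genes were called lower.

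Slc39a14 (ZIP14), which brings zinc, manganese and iron into hepatocytes, was the other Slc39 gene called with amyloidosis and is named after its values were seen. Vehicle pools had 202 CPM (VS) and 181 CPM (VI), fibril pools 381 CPM (FS) and 348 CPM (FI), so both fibril pools lay above both vehicle pools. The additive estimate was 0.92 (SE 0.12, adjusted p = 0.00622, edgeR). Unlike Mt1 and Mt2 it was lower in the trained pool of each pair, by −0.15 (−0.21 to −0.09) in vehicle and −0.13 (−0.17 to −0.09) in fibril livers.

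**Figure D4:**
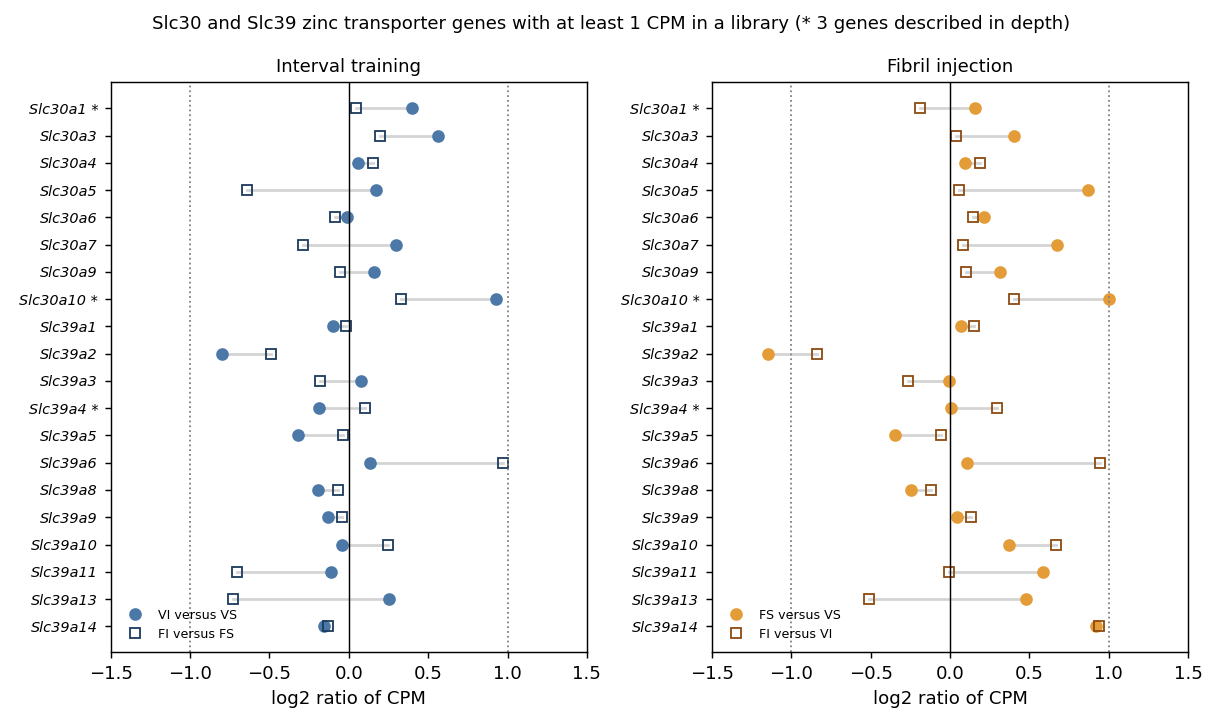
log2 ratio of CPM (x axis) of the 20 genes of the Slc30 and Slc39 families that had at least 1 CPM in a library (y axis), for IT on the left and for fibril injection on the right. Circles compare vehicle or sedentary pools and squares the fibril or trained pools, with dotted lines at 2-fold and a star at the 3 genes described in depth. Slc39a14 lies at 0.92 and 0.94 for fibril injection, and Slc39a2 alone passes 2-fold.

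Of the other genes linked to MTF1, 5 of 5 were kept and none passed 2-fold. Gclc, the catalytic subunit of glutamate-cysteine ligase in glutathione synthesis, was lower with amyloidosis in the additive model, by −0.71 (SE 0.13, adjusted p = 0.0201, edgeR). It was the only gene of the 5 called for either factor, where 2.17% of all genes were called lower with amyloidosis. Its levels were 351, 348, 197 and 235 CPM in VS, VI, FS and FI, the reverse of Mt1 and Mt2 across fibril injection. Of 9 oxidative and metal stress genes 8 were kept. Of these 3, Osgin1, Gclc and Gclm, were called lower with amyloidosis, against 2.17% of all genes. Osgin1 was just inside the threshold (adjusted p = 0.0496, edgeR). It passed 2-fold in FI against FS, at a log2 ratio of −1.26, and in FI against VI, at −1.87. Of 10 copper handling genes 9 were kept, and 1 passed 2-fold: Atp7a, a copper-exporting ATPase, with a log2 ratio of 1.04 (0.29 to 1.88) in FS against VS, at a level of 0.85 CPM in VS and 1.76 CPM in FS.

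Of 10 genes induced by glucocorticoids 6 were called higher with amyloidosis, against 2.81% of all genes, and 2 higher with IT, for which 1.48% of all genes were called in either direction, and their median log2 ratio was 0.47 in VI against VS, 0.63 in FI against FS, 0.83 in FS against VS and 0.72 in FI against VI. Tat, tyrosine aminotransferase, had 938 CPM (VS), 2018 (VI), 3226 (FS) and 5278 (FI), the same order of libraries as Mt1 and Mt2. Fkbp5 had that order too, but Errfi1 did not, with 928 CPM (VS), 1283 (VI), 1271 (FS) and 1639 (FI). Per1 was highest in VS, at 75.4 CPM. Of 13 acute phase genes driven by interleukin-6, 6 were called higher with amyloidosis, against 2.81% of all genes. With IT 1 was called higher, where 1.48% of all genes were called in either direction. Their medians were 0.48, 0.17, 1.28 and 0.87 in the 4 contrasts. Hp also had the order of Mt1 and Mt2, with 3489 CPM (VS), 4386 (VI), 6100 (FS) and 8022 (FI). Fgb was highest in FS, at 9689 CPM, against 7828 CPM in FI. For the clock lists, the share of all genes called with IT is again 1.48% in either direction. Of 3 clock genes in the phase of Arntl 2 were called higher with IT, and of 8 in the phase of Dbp 2 were called lower. Cry1, with the highest mean CPM of the first 3, had 13.8 CPM (VS), 31.5 (VI), 6.37 (FS) and 22.3 (FI). With each factor alone in the model, 8 genes in all were called for amyloidosis and 0 for IT by edgeR (650 for IT at an unadjusted p below 0.05), so these list counts rest on the additive fit. The part of hormones, inflammation or time of day in the levels of Mt1 and Mt2 was not tested.

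**Figure D5:**
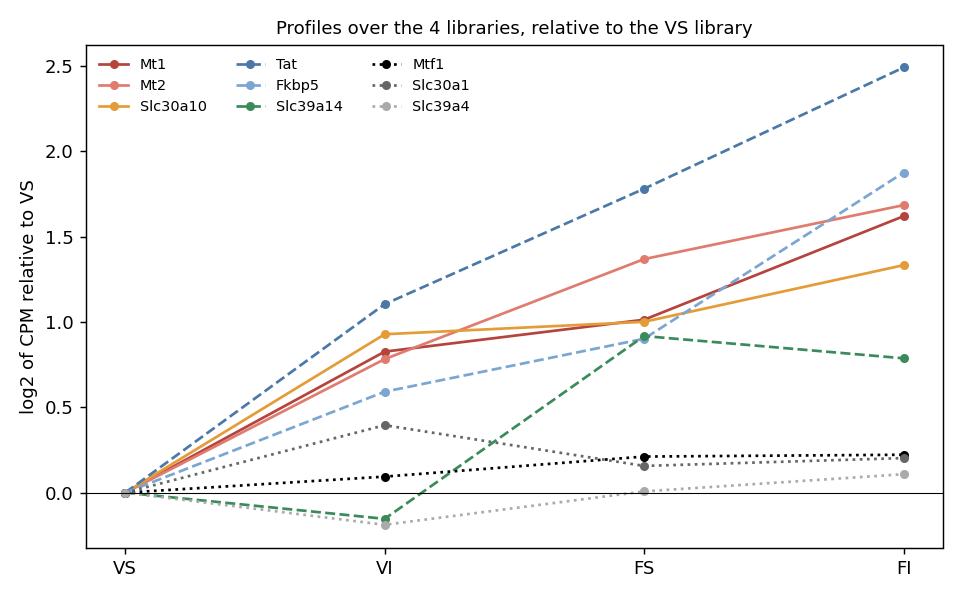
log2 of CPM relative to VS (y axis) in the 4 libraries (x axis) for the 6 genes and for Tat, Fkbp5 and Slc39a14. Points are single libraries, and lines only join the points of a gene. Mt1, Mt2, Slc30a10, Tat and Fkbp5 are highest in FI, whereas Slc39a14 is highest in FS at 381 CPM.

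Over the 4 libraries, the genes whose centred log2 CPM lay nearest to each of the 6, by Euclidean distance among 9349 genes, were taken as the most like in pattern. Nearest to Mt1 was Gfra1, a receptor subunit for glial cell line-derived neurotrophic factor, at a distance of 0.0573, with 87.6, 153, 168 and 269 CPM in the order VS, VI, FS, FI. It was followed by Fam222a, Fam35a, Jade2 and Peg3, at distances up to 0.146. Nearest to Mt2 was the amino acid transporter subunit Slc3a1, at 0.106, then Pptc7, Zbtb16, Cd163 and Trp53inp1. Slc30a10 had Gm14421, Jun, Lnpep, Marco and Gjc3 as its nearest, at 0.0741 to 0.184. Among the 6 themselves, Mt1 lay nearer to Slc30a10 (0.289) than to Mt2 (0.311), against a median distance of 1.18 from Mt1 to all genes. Nearest to Mtf1 were Brox, Higd1a, Pqbp1, Ube4a and Cdk11b, to Slc30a1 Erbb2ip, Srek1, Polr2b, Smek1 and Rb1, and to Slc39a4 2810004N23Rik, Chmp6, Cbx5, Cmas and Kmo. With 4 libraries, many genes of any shape lie close together, and nothing about shared control is read from these distances.

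Total counts were 23442935 to 28814802 per library. Hepatocyte markers, 10 of 10 above 0 in every library, summed to between 177100 and 200562 CPM, and Alb alone took 12.07% to 13.56% of the counts. Markers of Kupffer cells and macrophages summed to 305 CPM (VS), 354 (VI), 478 (FS) and 449 (FI), with 0 of 10 at a count of 0. In pooled bulk tissue, a different share of cells and a different amount of RNA per cell cannot be told apart. Skeletal muscle markers stood apart in VS, where 13 genes summed to 80.0 CPM, against 10.4 in VI and between 0.827 and 1.02 in the fibril pools, and 1 of the 13 in VS and 9 in FI had a count of 0. Neutrophil markers reached at most 5.39 CPM in sum, in FS, and adipocyte markers at most 3.82 CPM, while plasma cell markers summed to 21.9 to 47.7 CPM, pancreas markers to 12.8 to 23.2 CPM and erythroid markers to 253 to 360 CPM. The ratios against VS, the difference of the IT ratios and the additive model all use that library. The part of these markers in the results was not tested.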

How the data were processed

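Liver tissue of 4 mice per group was pooled, and 1 library was sequenced for each of VS, VI, FS and FI. The authors deposited read counts per gene, without normalization, and FPKM values, which equalled counts divided by gene length and library total in all 69722 values above 0. The submitters' processing notes name fastp 0.23.2, STAR 2.5 and HTSeq 0.6.1, with no strand setting stated. The software was edgeR 4.0.16 and DESeq2 1.42.0 in R 4.3.3, with matplotlib 3.10.9 in Python 3.11.15 for plots. After TMM scaling, a gene entered the ratios if any library reached 1 CPM. To each count 0.5 was added as a prior for ratios, whose 95% intervals were Clopper-Pearson intervals of the conditional binomial, levels had exact Poisson intervals, and the difference of both IT ratios had a Wald interval. For the additive model, genes needed 1 CPM in 2 libraries, the fit was the robust quasi-likelihood fit of edgeR, and genes were called at an adjusted p below 0.05 (Benjamini-Hochberg, over all genes tested). The SE given with an edgeR estimate is the absolute estimate divided by the square root of the quasi-likelihood F statistic. The fit was also run on simulated counts that held an IT effect only. Those counts held no interaction, so that run cannot check the residual used here.

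The 6 genes and the gene lists were chosen with earlier results of these data known. Besides the 6, genes of the metallothionein, Slc30, Slc39, MTF1-linked and copper lists were named where they passed 2-fold in a contrast, up to 3 of the most abundant genes of the other lists, and for each of the 6 genes the 5 with the nearest profile among genes with at least 5 CPM in a library. Outside this rule, Mt3, Mt4, Slc30a5, Slc30a7, Slc39a14, Per1 and intestinal markers were named with their values known, as was Gclc among the MTF1-linked genes. Of 164 list symbols, 3 were matched by identifier under an older symbol. Other settings tried were scaling by DESeq2 size factors or by total counts, log2 FPKM after adding 1 or 0.1, other filters and thresholds, DESeq2's Wald test, each factor alone and a fit without robust estimation.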

Additional observations from a re-analysis of the deposited data

Results flagged for a closer look

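The fibril ratio of the zinc exporter Slc30a1 pointed in opposite directions in sedentary and trained livers: FS against VS gave a log2 ratio of 0.16 (0.04 to 0.27), and FI against VI gave −0.19 (−0.30 to −0.08). The difference of these ratios, −0.35, was not tested, since each group is 1 library.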

How the results depend on the processing

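No paired analysis was possible because each group is 1 library, and for the same reason no library could be left out. DESeq2 size factors moved the ratios of the 6 genes by at most 0.014 on the log2 scale, total counts by at most 0.071, and FPKM with a pseudocount of 1 by up to 0.33. Signs changed only where the ratio was near 0, for Mtf1 and Slc30a1 in FI against FS and for Slc39a4 in FS against VS. In the order VI against VS, FI against FS, FS against VS and FI against VI, genes beyond the threshold numbered 4035, 4044, 4429 and 4197 without a filter, 144, 203, 353 and 229 with a filter at 5 CPM, and 1421, 1648, 2133 and 1703 at 1.5-fold. Of the 6 genes, 3 passed 1.5-fold in VI against VS, 1 in FI against FS, 3 in FS against VS and 2 in FI against VI. Over all 12180 genes, 1421, 1648, 2133 and 1703 passed it in that order. In FS against VS, where 2 of the 6 passed 2-fold, 1 did so with DESeq2 size factors and 3 with total counts. Without a filter, on 19939 genes, the additive model called 740 genes for IT and 1519 for amyloidosis. With the filter and IT alone in the model, edgeR called 0 genes, against 174 with both factors. With amyloidosis alone it called 8, against 585 with both factors. At an unadjusted p below 0.05 in edgeR, the genes for IT numbered 650 with IT alone and 1726 with both factors. Over the alternatives, the edgeR or DESeq2 adjusted p for amyloidosis ran from 2.75e-07 to 0.348 for Mt1 and from 8.05e-12 to 0.188 for Mt2, both highest with amyloidosis alone. For Slc30a10 with amyloidosis it ran from 0.000614 to 0.438, and for Mt1 with IT from 0.000223 to 0.914. The lowest counts were those of Slc30a10 (191 to 493) and Mtf1 (277 to 401).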
